A study of Mus musculus with 50 samples.

Results

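Of 50 mammary tumours profiled on 1 array each, 10 had Serpini1 RNA at or above 5.7 on the log2 scale and are called Serpini1-high here. They were chosen by that measured RNA level alone and set against the 37 tumours below 5.7, called Serpini1-low, across all measured genes other than Serpini1. The other 3 tumours, mid60, mid79 and mid100, were left out of both groups, since their arrays correlated least with the rest. The groups therefore rest on 1 measured gene, whose own values are given as a description without a test.

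All 50 samples were biopsies taken before drug treatment from spontaneous mammary tumours of female mice carrying MMTV-Erbb2. The transgene places the receptor tyrosine kinase ErbB2 under the viral MMTV promoter, active mainly in mammary epithelium, so every tumour, Serpini1-high or Serpini1-low, shares the transgene. Each mouse was a backcross animal, with 1 parent an F1 of C57BL/6J and FVB/NJ and the other an FVB/NJ MMTV-Erbb2 mouse, so inherited strain segments vary between animals. The labels hold a single group, without age, batch, response or a statement that each tumour had its own mouse. As the later drug, the title gives doxorubicin but the sample records give docetaxel. Array quality was close in both groups: averaged over its correlations with all others, an array scored 0.974 to 0.98 in Serpini1-high tumours and 0.967 to 0.981 in Serpini1-low tumours, against 0.916 to 0.954 in the 3 arrays left out.

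Serpini1 encodes neuroserpin, a secreted inhibitor of serine proteases that neurons release from regulated vesicles. Its best known target is tissue-type plasminogen activator, Plat, which turns plasminogen into plasmin, a protease that digests fibrin and matrix. Mutant neuroserpin polymerises in the endoplasmic reticulum and causes an inherited dementia in humans.

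Serpini1 lies head to head with Pdcd10, which encodes an adaptor of the cerebral cavernous malformation complex, so the starts of both genes face away from a shared stretch of mouse chromosome 3. The RefSeq promoter windows (250 bases before to 50 after each start, assembly GRCm38.p6) are shown because 1 of these neighbours differed between the groups by construction and the other did not differ detectably. They are chr3:75557243-75557542 on the plus strand for Serpini1 and chr3:75556803-75557102 on the minus strand for Pdcd10, with 140 bases between the windows and 641 between the starts. Capitals mark the letters CCAAT and GGGCGG on either strand (written ATTGG and CCGCCC where they lie on the other strand).
Serpini1: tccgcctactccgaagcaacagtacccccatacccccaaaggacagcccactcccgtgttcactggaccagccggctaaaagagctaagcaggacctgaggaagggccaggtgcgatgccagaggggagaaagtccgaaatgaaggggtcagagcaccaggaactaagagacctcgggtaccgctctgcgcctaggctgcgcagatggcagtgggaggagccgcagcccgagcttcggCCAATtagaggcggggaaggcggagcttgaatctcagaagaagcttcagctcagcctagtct
Pdcd10: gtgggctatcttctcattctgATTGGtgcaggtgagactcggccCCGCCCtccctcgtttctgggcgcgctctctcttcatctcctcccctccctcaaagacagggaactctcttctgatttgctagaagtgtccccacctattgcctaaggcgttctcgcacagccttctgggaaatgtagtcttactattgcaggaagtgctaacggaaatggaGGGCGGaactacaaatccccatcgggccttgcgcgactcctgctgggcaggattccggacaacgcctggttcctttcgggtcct
The Serpini1 window held 1 CCAAT and 0 GGGCGG, and the Pdcd10 window held 1 and 2. Over 32817 RefSeq mouse promoter windows of this length, 37.4% held CCAAT and 35.6% held GGGCGG, so neither match is uncommon. G and C made up 60% of the Serpini1 window and 56% of the Pdcd10 window, against a median of 52.7% over all windows.

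In the Serpini1-high tumours Serpini1 was 8.0 in mid120, 7.78 in mid47, 7.71 in mid130, 7.67 in mid7, 7.43 in mid114, 7.31 in mid117, 6.61 in mid177, 6.49 in mid37, 6.49 in mid99 and 6.31 in mid186. In the Serpini1-low tumours it was at its lowest 3.59, at the median 4.05 and at its highest 5.39. The Serpini1-high tumours averaged 7.18 ± 0.64 (SD, n = 10) and the Serpini1-low tumours 4.25 ± 0.51 (SD, n = 37), a difference of 2.94 log2 or 7.65-fold. The tumour just inside the threshold was mid186 at 6.31 and the one just outside was mid91 at 5.39, a gap of 0.92. Of the Serpini1-low tumours, 27 lay under 4.39, the level below which a gene was not tested, and 6 lay at or above 5. One probe set measured the gene. The 3 tumours left out had Serpini1 at 4.02 (mid60), 4.11 (mid79) and 4.62 (mid100).

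Pdcd10, the gene head to head with Serpini1, did not follow its split. Pdcd10 ranged over 6.80, 7.24 and 7.38 (lowest, median, highest) in Serpini1-high tumours and 6.46, 7.15 and 7.46 in Serpini1-low tumours. The groups overlapped almost wholly, and the difference was 0.04 log2 (95% interval -0.10 to 0.18, adjusted p = 0.829, limma). The next genes on the other side, Platr10 and Golim4, differed by -0.10 and -0.29 (adjusted p = 0.44 and 0.106), and Serpini2, the pancreatic serpin nearby, stayed at the bottom of the scale with medians of 3.16 in Serpini1-high and 3.17 in Serpini1-low tumours. Over the 20 nearest measured genes, 10 on each side, the median difference was -0.02, beside -0.004 for all tested genes. Of these 20, 11 lay under the level filter. Among the other 9, only Etfdh, an electron transfer enzyme of mitochondria, was called, beside 6.44% of all tested genes. Etfdh was 0.17 higher (adjusted p = 0.0498 over 16634 genes). Its adjusted p was 0.0666 when genes under the filter were tested too and up to 0.127 with 1 tumour left out (without mid47). Bche, 6 genes from Serpini1, had the largest difference of the 20 (-0.68, adjusted p = 0.202). At an unadjusted p under 0.05, Bche and Golim4 were lower and Etfdh higher. In mid47 the genes of chromosome 3 as a whole lay 0.31 above their usual level, while in the other 9 Serpini1-high tumours they lay between -0.04 and 0.01.

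**Figure D1:**
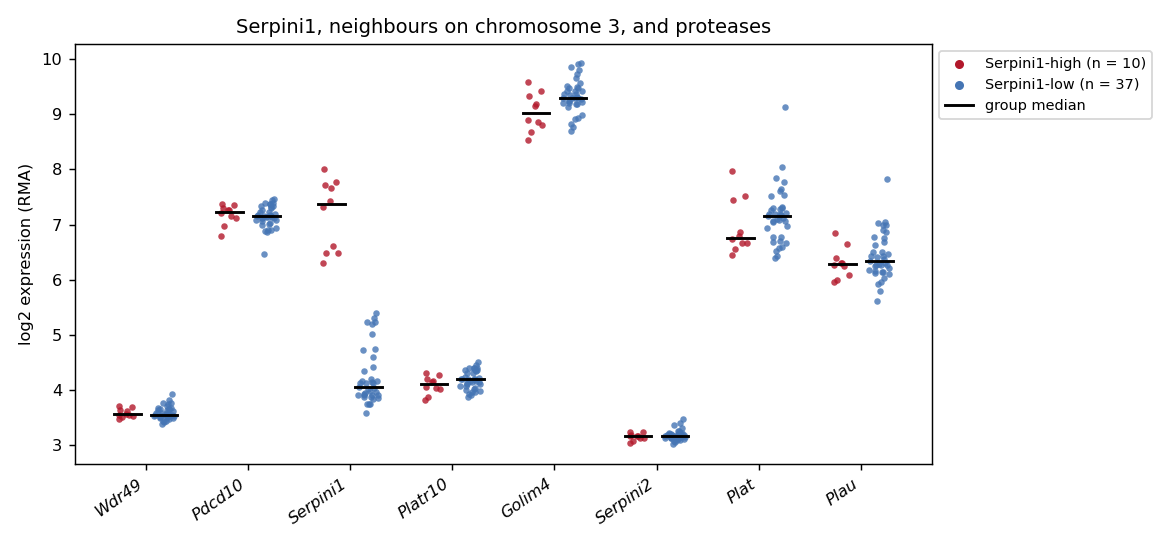
Log2 expression of Serpini1, its nearest genes on chromosome 3 in their order (Wdr49 to Golim4), Serpini2, and the proteases Plat and Plau, 1 point per tumour with Serpini1-high left of Serpini1-low and a bar at each group's median. Serpini1 separates the groups because it chose them (6.31 and above against 5.39 and below), while Pdcd10 and the other genes overlap.

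Across all other genes, the Serpini1-high tumours had 718 genes higher (4.32% of 16634 tested) and 353 lower (2.12%), called at an adjusted p under 0.05 with limma and Benjamini-Hochberg. Most differences were small: the median called difference was 0.34 log2 among the higher genes and -0.40 among the lower ones. Of the called genes, 21 were at least 1 log2 higher (0.126%) and 29 at least 1 log2 lower (0.174%). With 10 tumours set against 37, 0 genes separated the groups without overlap (0.0% in either direction), so each difference below is a shift between overlapping groups. Single tumours weighed on the counts: 444 higher and 175 lower were called without mid130, 467 and 228 without mid114, and 506 and 221 without mid177. With all 50 tumours the calls were 562 higher and 186 lower. With the levels of chromosomes 4 and 5 in each tumour as covariates, described further on, they were 32 and 6. The p-values measure the spread between these tumours only.

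The 2 genes with the largest statistics among those called higher, Nceh1 and Aacs, act on lipids. Nceh1, a hydrolase of cholesterol esters, was 7.39, 7.81 and 8.41 (lowest, median, highest) in Serpini1-high tumours and 6.55, 7.07 and 7.71 in Serpini1-low tumours. All 10 Serpini1-high tumours lay above the Serpini1-low median and 6 lay above every Serpini1-low tumour. The difference was 0.70 log2 (95% interval 0.51 to 0.89, adjusted p = 2.61e-05). Aacs, which activates acetoacetate for lipid synthesis, was 0.60 higher (adjusted p = 3.62e-05), with medians of 6.96 in Serpini1-high and 6.38 in Serpini1-low tumours. Gpd1, which makes the glycerol backbone of triglycerides, was 0.70 higher (adjusted p = 0.000454), with medians of 8.15 in Serpini1-high and 7.36 in Serpini1-low tumours.

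Wider lists of lipid genes were put together after these values were seen, so their counts describe and test nothing. Of 25 tested genes of fatty acid synthesis and lipid storage, 9 were called higher and 1 lower (40% called, beside 6.44% of all tested genes). Their median difference was 0.21, beside -0.004 for all genes. The higher ones included Gpam, the first enzyme of glycerolipid synthesis (0.49, adjusted p = 0.00223), G0s2, an inhibitor of triglyceride breakdown (0.85, adjusted p = 0.00511), and its target lipase Pnpla2 (0.47, adjusted p = 0.016). The lower one was Elovl5, which lengthens polyunsaturated fatty acids (-0.49, adjusted p = 0.0221). Of 21 genes of cholesterol and isoprenoid synthesis, 6 were called higher and 0 lower (28.6% called, median 0.21). They included Insig1, which holds the sterol-sensing machinery in the endoplasmic reticulum (0.75, adjusted p = 0.00207), and Dhdds, which makes dolichol (0.54, adjusted p = 0.000521). Without mid130 the calls were 5 higher and 0 lower in the fatty acid list and 3 and 0 in the cholesterol list, and with all 50 tumours the fatty acid list had 2 higher and 0 lower. Adipocytes also carry such enzymes. The mean level of 12 tested adipocyte markers was 5.88, 6.28 and 7.75 (lowest, median, highest) in Serpini1-high and 5.81, 6.37 and 7.26 in Serpini1-low tumours. Of the 12, 2 were called higher (16.7%), Lipe and Pnpla2, which are in the fatty acid list too and are counted there as well. Lipe lost its call without mid130, mid186, mid114, mid177 or mid47 (adjusted p = 0.0618 to 0.14). With the scores of adipocyte, fibroblast, endothelial and macrophage genes as covariates, 4 genes of the fatty acid list and 3 of the cholesterol list were called higher. The adipocyte score itself includes Lipe and Pnpla2.

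Other genes at the top of the higher list act in many processes. Susd2, a membrane protein with a sushi domain, was 7.01, 8.0 and 9.10 in Serpini1-high tumours and 6.08, 6.83 and 7.81 in Serpini1-low tumours. Of the Serpini1-high tumours, 5 lay above every Serpini1-low tumour and the other 5 within their range, and the difference was 1.25 (adjusted p = 0.000175). Inpp5j, a phosphoinositide 5-phosphatase, was 0.61 higher (adjusted p = 0.000175) and 8 of 10 Serpini1-high tumours exceeded every Serpini1-low tumour. Kif1b, a kinesin that carries vesicles and mitochondria along axons, was 0.77 higher (adjusted p = 0.000181). Cpeb4, which regulates translation of mRNAs through their tails, was 0.39 higher (adjusted p = 0.000299). Pomgnt1, a glycosyltransferase of O-mannosyl chains, Atp6v0a2, a subunit of the vesicular proton pump, and Kdm1b, a histone demethylase, were 0.87, 0.62 and 0.54 higher (adjusted p = 0.000371 for each). Trabd, Tmigd1, Gtf2b, Tas1r3 and D630039A03Rik complete the 15 genes with the largest statistics, with differences between 0.36 and 0.83.

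The 2 genes with the largest statistics among those called lower, Flna and Cnn2, bind actin. Flna, filamin A, which crosslinks actin filaments, was 8.10, 8.55 and 9.40 in Serpini1-high tumours and 8.83, 9.91 and 10.56 in Serpini1-low tumours. It lay below the Serpini1-low median in 10 of 10 Serpini1-high tumours, and 7 of them lay under every Serpini1-low tumour. The difference was -1.12 (95% interval -1.43 to -0.82, adjusted p = 2.61e-05). Cnn2, calponin 2, differed by -1.32 (adjusted p = 9.69e-05), with medians of 7.50 in Serpini1-high and 8.92 in Serpini1-low tumours. Lima1, which stabilises actin bundles, differed by -0.56 (adjusted p = 0.000517), and Myh9, the heavy chain of non-muscle myosin, by -0.34 (adjusted p = 0.00815). In a list of 31 actin-binding and contractile genes, also chosen after the values were seen, 11 were called lower and 0 higher. That is 35.5%, beside 6.44% of all tested genes, and 29 had a difference below 0 (median -0.23).

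Actin genes are also strong in stroma and in basal cells, so the markers of both are given beside them. Of 21 fibroblast and matrix genes, 20 had a difference below 0 (median -0.35). Only Vcan, a matrix proteoglycan, was called (-1.0, adjusted p = 0.00813), which is 4.76% of the list beside 6.44% of all tested genes. The mean level of those 21 genes was 6.52, 7.39 and 8.59 in Serpini1-high and 6.21, 7.71 and 10.16 in Serpini1-low tumours, so the groups overlapped. Col1a1, a defining fibroblast marker, had medians of 9.04 in Serpini1-high and 9.63 in Serpini1-low tumours (adjusted p = 0.5). All 18 macrophage genes had a difference below 0 (median -0.23), but 0 were called and 1 had an unadjusted p under 0.05. Of 11 basal and myoepithelial genes, 3 were called lower and 0 higher (27.3% called). They were the cadherin Cdh3 (-0.52, adjusted p = 0.0122), the myosin kinase Mylk (-0.44, adjusted p = 0.0125) and the oxytocin receptor Oxtr (-0.66, adjusted p = 0.036). Mylk is in the actin list too and is counted there as well. The call of Oxtr was lost without mid7, mid114, mid177, mid47 or mid37, with adjusted p between 0.0525 and 0.101. In such bulk tissue, fewer cells of a type and less RNA per cell cannot be told apart. When the scores of fibroblast, endothelial, macrophage and adipocyte genes entered the fit, the calls fell to 136 higher and 77 lower, 3 actin genes were called lower, and Flna (-0.91 with them) and Nceh1 were still called.

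**Figure D2:**
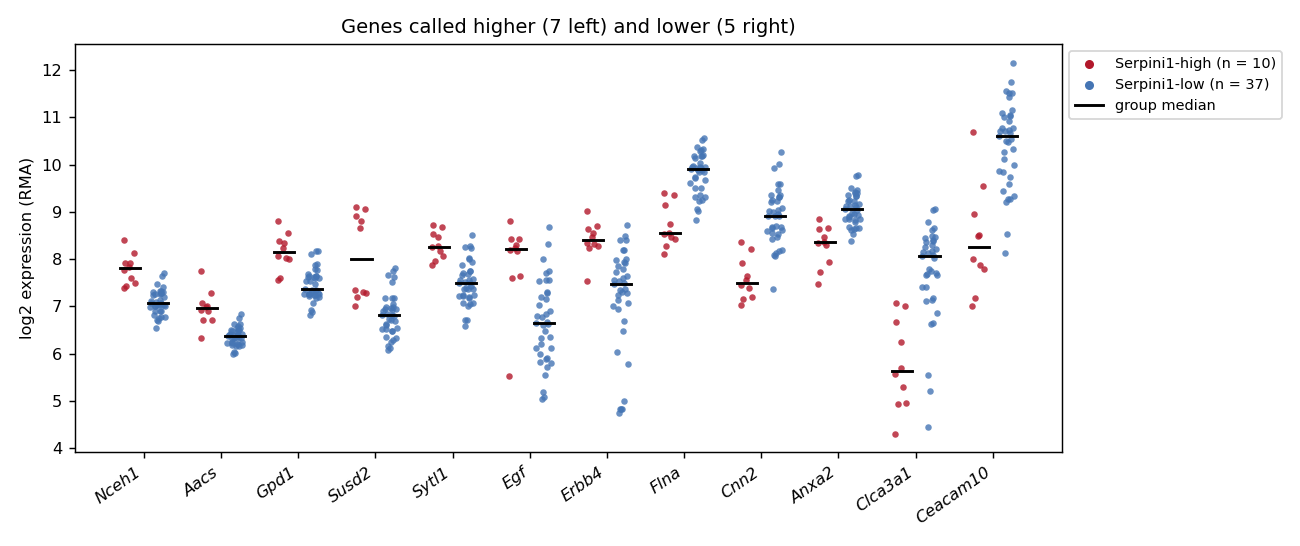
Log2 expression of 7 genes called higher and 5 called lower, 1 point per tumour with Serpini1-high (10) left of Serpini1-low (37) and a bar at each group's median. Every gene overlaps between the groups, and at most 7 of 10 Serpini1-high tumours lie beyond every Serpini1-low tumour, above it for Aacs and below it for Flna.

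Other genes called lower had larger differences. Ceacam10, a cell adhesion molecule of the CEA family, was 7.0, 8.26 and 10.69 in Serpini1-high tumours and 8.13, 10.61 and 12.16 in Serpini1-low tumours. Of the Serpini1-high tumours, 5 lay under every Serpini1-low tumour and 1 lay above the Serpini1-low median, with a difference of -2.02 (adjusted p = 0.000253). Clca3a1 and Clca3a2, secreted regulators of chloride channels that lie on chromosome 3, differed by -1.95 and -1.80 (adjusted p = 0.000521 and 0.00113). These are near copies, so their probe sets may read each other's RNA. The membrane scaffold Flot1 (-0.44), the acetylcholine receptor subunit Chrnb1 (-0.98), the adhesion receptor Adgrg2 (-1.37) and the tetraspan protein Gpm6b (-0.91) were called too, with adjusted p of 0.000254, 0.000269, 0.000517 and 0.000809. Ctxn1, Cmtm3, Pcdhb14 and Armcx1, with differences between -0.55 and -0.83, complete the 15 lower genes with the largest statistics. Cnmd, an inhibitor of vessel growth first known in cartilage, had the largest called fall at -2.25 (adjusted p = 0.0166), with medians of 5.68 in Serpini1-high and 9.08 in Serpini1-low tumours. It belongs to a list of 17 genes on in some tumours only, and ranged from 4.84 to 10.87 in Serpini1-low tumours. Over the alternative fits, given further on, its adjusted p reached 0.611.

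The proteases that neuroserpin is known to act on were among the genes tested. Plat, the target protease, was 6.45, 6.77 and 7.98 in Serpini1-high tumours and 6.39, 7.16 and 9.14 in Serpini1-low tumours. The groups overlapped, with a difference of -0.20 (95% interval -0.56 to 0.15, adjusted p = 0.571). The urokinase gene Plau (-0.13, adjusted p = 0.653) and Plg, plasminogen, which stayed near the filter level (medians 4.60 in Serpini1-high and 4.64 in Serpini1-low tumours, adjusted p = 0.652), were not called. Of 19 tested targets, receptors and partners, 2 were called lower and 0 higher (10.5% called, beside 6.44% of all tested genes), and the median was -0.10. Anxa2, which holds plasminogen and Plat at the cell surface with S100a10, was 7.47, 8.36 and 8.85 in Serpini1-high and 8.39, 9.06 and 9.78 in Serpini1-low tumours. It differed by -0.79 (adjusted p = 0.000175), while S100a10 itself differed by -0.16 (adjusted p = 0.434). Prss12, neurotrypsin, a protease of synapses, differed by -0.66 (adjusted p = 0.0235), a call lost without mid130, mid177 or mid117 (adjusted p = 0.067, 0.067 and 0.069). Of 20 other tested serpins 0 were called, with 1 higher and 4 lower at an unadjusted p under 0.05. The nearest were Serpina3n (-0.85, adjusted p = 0.0687), Serpinb5, maspin (-0.76, adjusted p = 0.0838), and the collagen chaperone Serpinh1 (-0.33, adjusted p = 0.0929).

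Genes of the neuronal and secretory setting of neuroserpin were called at shares on both sides of the 6.44% of all genes. Of 15 tested neuronal and neuroendocrine genes 0 were called (2 lower at an unadjusted p under 0.05, median -0.004), and Syp, Snap25 and Stmn2, which mark neurons and their vesicles, differed by 0.04, 0.00 and -0.02. Of 15 dense core vesicle genes only Pam, which amidates peptide hormones, was called (6.67%), and it was lower (-0.59, adjusted p = 0.00778). In the endoplasmic reticulum list, 16 of 19 genes had a difference above 0 (median 0.14). Among those 19, 3 were called (15.8%): 2 were higher, Edem1, which sends misfolded glycoproteins to degradation (0.37, adjusted p = 0.00815), and Herpud1, of the same pathway (0.44, adjusted p = 0.0209), and 1 was lower, the stress pseudokinase Trib3 (-0.38, adjusted p = 0.0226). Herpud1 lost its call without mid7, mid130 or mid177 (adjusted p = 0.0512 to 0.082) and Trib3 without mid99 or mid47 (0.051 and 0.0778), while without mid99 the higher calls in this list came to 5. Of 51 genes of transport between reticulum, Golgi and vesicles, a list chosen after the values were seen, 6 were called higher and 1 lower (median 0.06). Sytl1, a partner of Rab27 in secretion, was 0.81 higher (adjusted p = 0.000763) and lay above the Serpini1-low median in 10 of 10 Serpini1-high tumours.

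In the ErbB family, the receptor that the transgene encodes did not differ detectably: Erbb2 had medians of 11.63 in Serpini1-high and 11.74 in Serpini1-low tumours (difference -0.12, adjusted p = 0.328). Egf, the ligand of the EGF receptor, was 5.52, 8.22 and 8.80 in Serpini1-high and 5.04, 6.64 and 8.68 in Serpini1-low tumours. All Serpini1-high tumours but mid47 lay above the Serpini1-low median, and the difference was 1.27 (95% interval 0.65 to 1.89, adjusted p = 0.00863). Erbb4, the neuregulin receptor tied to milk-forming differentiation, was 1.25 higher (adjusted p = 0.022), with 7.53, 8.41 and 9.01 in Serpini1-high and 4.75, 7.48 and 8.72 in Serpini1-low tumours. These were the 2 called of 14 tested receptors and ligands (14.3%, beside 6.44% of all tested genes), and 0 were called lower. Erbb3 and Egfr differed by -0.07 and 0.02 (adjusted p = 0.661 and 0.956). Neither Egf nor Erbb4 was called with the stromal scores or the chromosome 4 and 5 levels as covariates, or without mid7, mid114 and mid177. Over all alternatives the adjusted p reached 0.16 for Egf and 0.456 for Erbb4.

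Among epithelial markers, Epcam and Krt8 differed by -0.06 and 0.10 (adjusted p = 0.539 and 0.481). Of 18 luminal genes 3 were called (16.7%, beside 6.44% of all tested genes). Spdef and Kit were higher and Krt7 lower, all with adjusted p between 0.0385 and 0.0483. At an unadjusted p under 0.05, 4 luminal genes were higher and 5 lower, among them Krt18 (0.23) and Gata3 (0.25) higher and the estrogen receptor Esr1 (-0.38) and E-cadherin Cdh1 (-0.20) lower. None of the 3 calls held through each removal of 1 tumour, with adjusted p up to 0.0966 for Spdef (without mid7), 0.159 for Kit (without mid177) and 0.108 for Krt7 (without mid114). Of 14 milk genes and of 32 proliferation genes 0 were called (medians -0.06 and 0.04), with 3 milk genes and 0 proliferation genes at an unadjusted p under 0.05. In a list of salivary-type secreted proteins, 2 of 10 were called higher (20%). The list moved in no single direction: 6 differences were above 0 and 4 below it. At an unadjusted p under 0.05, 5 were higher and 2 lower, the lower ones Fetub (-1.48, adjusted p = 0.137) and Apod (-1.37, adjusted p = 0.162). Car6, a secreted carbonic anhydrase, was 8.20, 11.32 and 12.86 in Serpini1-high and 7.06, 9.16 and 11.38 in Serpini1-low tumours (difference 1.79, adjusted p = 0.00626). Scgb2b27, an androgen-binding protein of saliva, was 1.69 higher (adjusted p = 0.0258), but not called without mid130, mid177, mid37 or mid117 (adjusted p = 0.0532 to 0.0684).

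**Figure D3:**
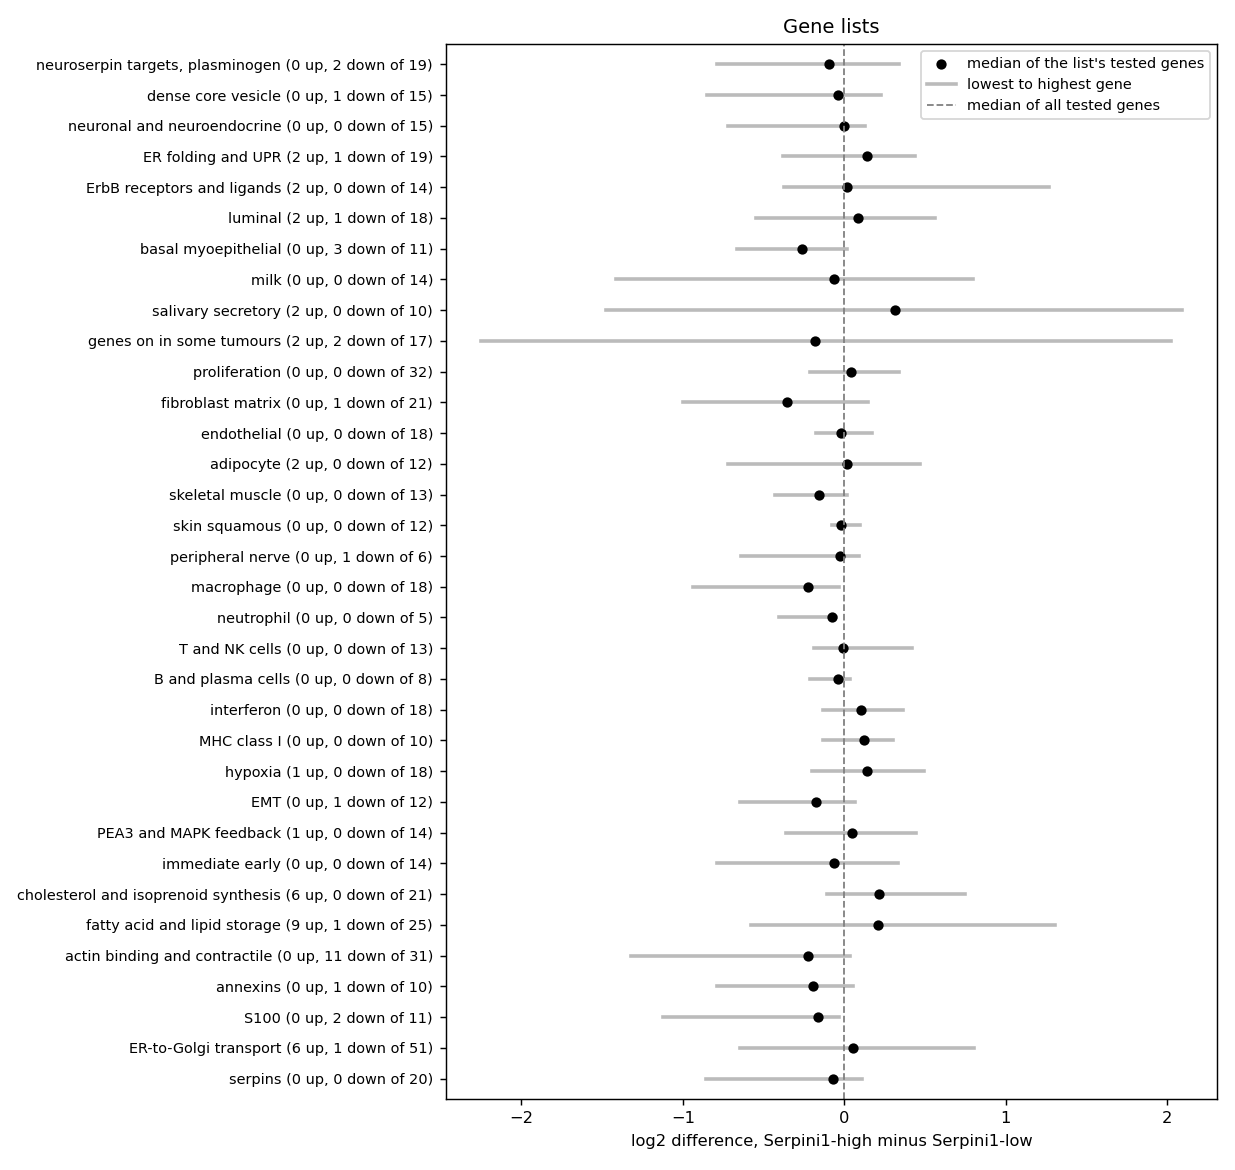
Median (point) and range (line) of the log2 difference, Serpini1-high minus Serpini1-low, over the tested genes of each list, with the number called up and down and a dashed line at the median of all tested genes. The actin list had 0 up and 11 down of 31, the fatty acid list 9 up and 1 down of 25, and the cholesterol list 6 up and 0 down of 21. Over all tested genes 6.44% were called. These lists and the annexin, S100 and ER-to-Golgi transport lists were chosen after the values were seen. Their counts therefore cannot be set against those of the other lists, such as proliferation and milk with 0 calls.

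The genes called higher were unevenly spread over the chromosomes. On chromosome 4, 161 of 1024 tested genes were called higher (15.7%) and 3 lower, and on chromosome 5, 122 of 1012 (12.1%) and 4 lower. Together they held 39.4% of the higher calls on 12.2% of the tested genes. On the other chromosomes the share called higher was between 0.843% (chromosome 13) and 5.03% (chromosome 15). The shift ran along the chromosomes rather than in 1 stretch: in bins of 50 neighbouring genes, 20 of 20 bins on chromosome 4 and 19 of 20 on chromosome 5 had a median difference above 0. Pomgnt1, Kif1b, Tas1r3 and D630039A03Rik lie on chromosome 4, and Aacs and Atp6v0a2 on chromosome 5, as do Dhdds, Sytl1 and Car6 (4) and Insig1 (5).

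**Figure D4:**
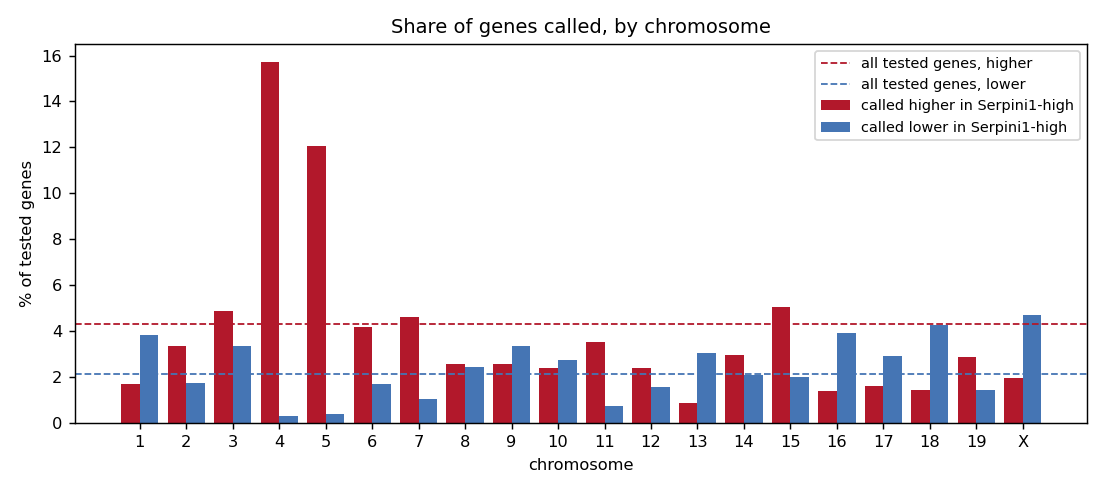
Percent of each chromosome's tested genes called higher (red, left) or lower (blue, right) in Serpini1-high tumours, with dashed lines at the percent over all tested genes (4.32% and 2.12%). Chromosomes 4 (15.7%) and 5 (12.1%) stand above the rest in the higher calls.

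The level of a chromosome in a tumour, taken over its better expressed genes as the median deviation from each gene's median over the 47 tumours, minus the median over chromosomes, was computed after these counts were seen. On chromosome 4 it was -0.195, 0.27 and 0.32 (lowest, median, highest) in Serpini1-high tumours and -0.23, -0.04 and 0.34 in Serpini1-low tumours. It was above 0.1 in 7 of 10 Serpini1-high and in 9 of 37 Serpini1-low tumours, and below -0.1 in 1 of 10 (mid7) and in 18 of 37. On chromosome 5 it was raised in mid177 (0.52), mid7 (0.37) and mid114 (0.32), and at most 0.01 in the other Serpini1-high tumours, against a median of -0.02 and a highest value of 0.18 in Serpini1-low tumours. Thus the chromosome 4 level was raised in most Serpini1-high tumours, but also in 9 of 37 Serpini1-low tumours, and the groups overlapped widely. The chromosome 5 level was raised in 3 Serpini1-high tumours.

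**Figure D5:**
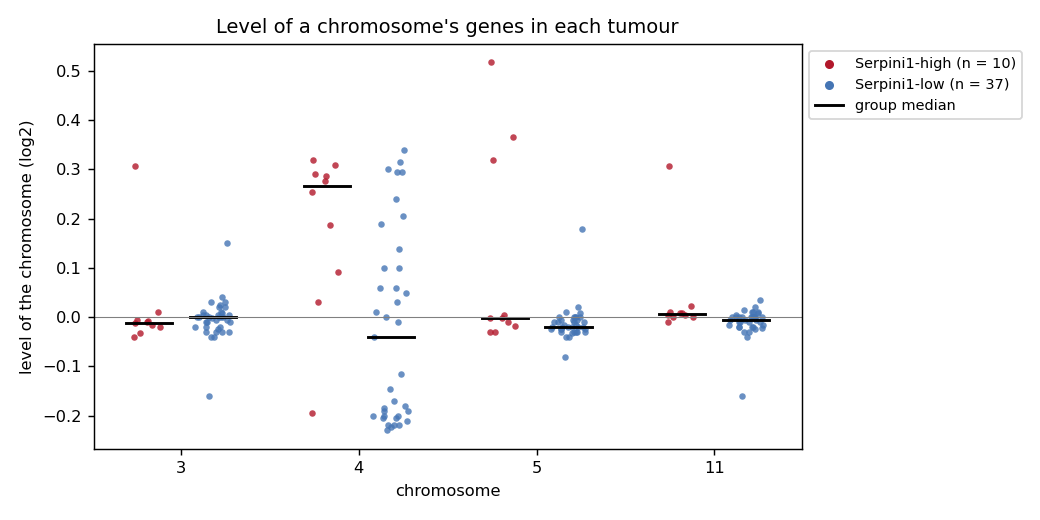
Level of the genes of chromosomes 3, 4, 5 and 11 in each tumour (log2, relative to the median tumour and chromosome), Serpini1-high left of Serpini1-low, with a bar at each group's median. On chromosome 4 most Serpini1-high tumours lie between 0.19 and 0.32 (median 0.27) with mid7 at -0.195, while 3 Serpini1-high tumours stand apart on chromosome 5 and mid47 on chromosomes 3 and 11.

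Most calls were lost with these chromosome levels in the fit. The levels are medians over genes of the same chromosomes, so the loss of calls there was close to fixed in advance. Genes called higher went from 161 to 0 on chromosome 4 and from 122 to 1 on chromosome 5. With the levels of chromosomes 4 and 5 as covariates, an alternative added after seeing the data, 32 genes were called higher and 6 lower, of which 28 and 5 were called without the covariates too. Of the 1071 genes called without covariates, 1069 kept the sign of their difference. The differences became smaller and their errors larger, but they did not vanish: over the 718 higher genes the median was 0.24 with the covariates and 0.34 without (median SE 0.10 and 0.09), and over the 353 lower genes it was -0.28 and -0.40 (median SE 0.13 and 0.11). Of 87 called genes examined by name, 10 stayed called: Nceh1, Inpp5j, Cpeb4, Kdm1b, Gtf2b, Tmigd1 and Gpd1 higher, and Flna, Anxa2 and Flot1 lower. In that fit 2 of 25 fatty acid genes, 0 of 21 cholesterol genes and 1 of 31 actin genes were called. The medians of these lists were 0.21, 0.28 and -0.24, beside 0.21, 0.21 and -0.23 without the covariates. Of the 6 cholesterol genes called without the covariates, Dhdds lies on chromosome 4 and Aacs, Insig1 and Cyp51 on chromosome 5. Without mid7, mid114 and mid177 the calls were 241 higher and 104 lower, and 12 of the higher genes lay on chromosome 5. Of the 10 genes just named, all but Gpd1, which lost its call with all 50 tumours, were called under each of the 23 alternatives that tested them. The stricter filter left out Tmigd1, which had passed the filter used here through the Serpini1-high tumours, where it was high.

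Among the genes called on chromosome 4 were probe sets of 2 members of the miR-200 family, microRNAs that keep epithelial cells epithelial by repressing Zeb1 and Zeb2. They were chosen after their values were seen. Probe sets of other microRNAs on chromosome 4 were called higher too. Among them were Mir34a (0.55, adjusted p = 0.00144) and Mir30e (0.65, adjusted p = 0.00904). Mir34a and Mir30e had means of 4.857 and 4.932 in Serpini1-high and 4.305 and 4.278 in Serpini1-low tumours. The Serpini1-low means lay under the filter level, so both were tested only because of the tumours where they were high. The mature sequences from RefSeq (GRCm38.p6) are shown with the seed, bases 2 to 8, in capitals, because the family falls into different seeds and onto different chromosomes.
miR-200a-3p: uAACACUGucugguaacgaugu
miR-200b-3p: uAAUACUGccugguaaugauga
miR-200c-3p: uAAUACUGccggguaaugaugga
The miR-200b and miR-200c seeds are the same and the miR-200a seed differs from them. The Mir200a probe set was 6.56, 7.16 and 7.48 in Serpini1-high and 5.93, 6.44 and 7.47 in Serpini1-low tumours, a difference of 0.59 (adjusted p = 0.00547). The Mir200b probe set was 0.77 higher (adjusted p = 0.0116), and all 10 Serpini1-high tumours lay above the Serpini1-low median for both. Mir200c, on chromosome 6, differed by 0.11 (95% interval -0.12 to 0.35, adjusted p = 0.634). These arrays read total RNA, so the probe sets may read the precursor transcript rather than the mature microRNA. The mature miR-200a and miR-200b lie close together on the minus strand of chromosome 4 (from 156054911 and 156055685). Their 2 probe sets may therefore read 1 transcript. With the chromosome 4 and 5 levels as covariates neither Mir200a nor Mir200b was called. Both lie on chromosome 4, whose genes make up 1 of these levels.

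The genes most like Serpini1 over the 47 tumours, by Pearson's r and given without a test, were Trabd (0.74), Aacs (0.74), Dhdds (0.71), Ergic2 (0.71) and Pomgnt1 (0.71). The most opposed were Flna (-0.75), Chrnb1 (-0.74) and Anxa2 (-0.73). Part of each r is the split itself: within the 10 Serpini1-high tumours r was 0.41 for Trabd and 0.17 for Aacs, against 0.47 and 0.36 within the 37 Serpini1-low tumours. For Chrnb1 it was -0.64 within the Serpini1-high and -0.35 within the Serpini1-low tumours.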

How the data were processed

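RNA from biopsies of 50 mammary tumours was measured on 1 Affymetrix array each. The labels' protocol names Trizol for the RNA. Values were deposited by the authors as log2 signal from RMA, per the submitters' processing notes, which also list mm8 with no role. No version of RMA is recorded in what was used here. The quantile normalization within RMA hides a change shared by most genes. The number of arrays limits the precision, and no 2 arrays were identical.

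Of 34472 probe sets, 23521 name 1 gene, 1814 several and 9137 none, by the platform annotation. Only those with 1 gene were used, and for 1082 of 22180 genes with several the set with the highest mean was taken. Genes with a mean over 50 arrays under 4.39 (the 25th percentile) were left out, leaving 16634 besides Serpini1. Gene order came from a RefSeq table (GRCm38.p6), used for order and names only.

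Groups were tested with limma 3.58.1 in R 4.3.3 (lmFit, eBayes with trend, two-sided, Benjamini-Hochberg over all tested genes, called under 0.05). Genes under the filter take p-values from a fit with no filter. On simulated data with these group sizes (16634 genes) 89% of 100 genes planted at 0.5 log2 and 97% of 100 at 1 were recovered, with 7 false calls. Each gene was drawn independently, without the shifts that genes of a chromosome share in these tumours. The number of false calls in the real comparison therefore cannot be read from it.

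The split on Serpini1, the 3 arrays left out and the lists were chosen with earlier results of these data known. Named genes were the 15 with the largest statistic in each direction, Pdcd10, called neighbours, called serpins, up to 5 called members of each list, and the 5 most and 3 least correlated with Serpini1. The lists of lipid, cholesterol, actin, annexin, S100 and vesicle transport genes, the chromosome levels, the microRNAs, and other genes given for comparison were chosen after their values were seen. The alternatives were 2 other filters, all 50 tumours, thresholds of 5.2 and 6.2, Serpini1 as a continuous predictor, a further quantile normalization, the probe set with the largest SD, array weights, ranks, stromal scores as covariates and each Serpini1-high tumour left out. Another 2, with chromosome 4 and 5 levels as covariates and without mid7, mid114 and mid177, were added after seeing the data. Sequences came from RefSeq tables. Python 3.11.15, numpy 2.4.6, pandas 2.3.3 and matplotlib 3.10.9 were used.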

Additional observations from a re-analysis of the deposited data

Results flagged for a closer look

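For each of 72 genes named by rule, Serpini1 included, the lowest and the highest of the 10 Serpini1-high tumours were set against Dixon's limit for a value far from the others. Chance alone passes that limit in about 1 group in 20, and 8 genes passed it here. Tumour mid47 was far below the other Serpini1-high tumours for Egf (5.52, next 7.61) and Erbb4 (7.53, next 8.23). Tumour mid99 was far below them for Car6 (8.20, next 10.61), Scgb2b27 (8.46, next 10.86) and Edem1 (8.43, next 9.30). Tas1r3 was lowest in mid7 (5.65, next 6.05), the tumour with the lowest chromosome 4 level of the Serpini1-high group, and Tas1r3 lies on chromosome 4. Armcx1 was lowest in mid177 (5.06, next 5.71), and S100a6 was highest in mid186 (8.19, next 6.98). In each case but Armcx1 the tumour lay against the direction in which its group differed.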

How the results depend on the processing

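The 718 higher and 353 lower calls stayed within 1.5 times under no filter, a stricter filter, the threshold of 5.2 (15 tumours), Serpini1 as a continuous predictor, a further quantile normalization, the other probe sets and array weights, and a threshold of 6.2 gave the same 10 tumours. The genes were not all the same: at 5.2 the calls shared with the 5.7 split were 489 of 718 higher and 218 of 353 lower, and 283 of the higher calls lay on chromosome 4 and 77 on chromosome 5. The lower calls fell to 186 with all 50 tumours. Ranks gave 452 higher and 232 lower, stromal scores as covariates 136 and 77, chromosome 4 and 5 levels as covariates 32 and 6, and leaving out mid7, mid114 and mid177 gave 241 and 104. Leaving out 1 Serpini1-high tumour gave 444 to 776 higher and 175 to 374 lower. The cause was not tested. Over the alternatives the median was -0.06 to 0.01 for the neighbours (above 0 with the chromosome covariates), -0.22 (all 50 tumours) to -0.02 (stromal scores) for the neuroserpin targets, and -0.10 to -0.01 for the vesicle and neuronal genes. No named call changed direction. Ranks give no log2 median, so the neighbours and lists have no value there. No paired analysis was possible because the labels give 1 group and number no pairs.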

Other observations

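Some of the largest differences lay in genes outside the lists, picked here after their values were seen. Transporters were among them: Slc38a1, which carries glutamine, was 7.71, 9.47 and 10.16 (lowest, median, highest) in Serpini1-high and 5.37, 7.51 and 9.84 in Serpini1-low tumours (difference 1.70, adjusted p = 0.00986, limma). Slc34a2, a phosphate carrier of milk-secreting cells, was 1.43 higher (adjusted p = 0.00287). Rragd, a GTPase that links amino acids to growth signalling, and Pon3, a lactonase, were 1.44 and 1.5 higher (adjusted p = 0.00403 and 0.00231). All 10 Serpini1-high tumours lay above the Serpini1-low median for each of these genes.

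Gabra4, a subunit of the GABA receptor, had the largest called rise, 2.02 (adjusted p = 0.0111). It was 3.58, 6.31 and 8.82 in Serpini1-high and 3.32, 3.64 and 7.95 in Serpini1-low tumours. Its Serpini1-low mean, 4.207, lay under the filter level, so Gabra4 was tested only because of the tumours where it was high. Unlike the genes above, Gabra4 belongs to a list, of 17 genes on in some tumours only, with 2 called higher and 2 lower (23.5%). Among lower genes, Cd177, a surface protein of neutrophils, had medians of 6.84 in Serpini1-high and 9.14 in Serpini1-low tumours (difference -1.70, adjusted p = 0.00514), while 0 of 5 tested neutrophil markers were called, and 0 at an unadjusted p under 0.05 (median -0.07, all 5 below 0). Sting1, a sensor of the cytosolic DNA pathway, differed by -0.81 (adjusted p = 0.00278), while 0 of 18 interferon-induced genes were called, and 0 at an unadjusted p under 0.05 (median 0.11). With the chromosome 4 and 5 levels as covariates none of 7 genes (Slc38a1, Slc34a2, Rragd, Pon3, Gabra4, Cd177 and Sting1) was called. Of these, Rragd lies on chromosome 4 and Slc34a2 and Gabra4 on chromosome 5, whose genes make up the levels. Of 10 annexins 1 was called lower, Anxa2 (10%), and of 11 S100 genes 2, S100a6 and S100a11 (18.2%, differences -1.12 and -0.32). Over all tested genes the share called was 6.44%, and both lists were chosen after the values were seen. S100a11 lost its call without mid130, mid114, mid177 or mid120 (adjusted p = 0.0577 to 0.0957).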
